A study of Mus musculus with 6 samples.

Results

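The genes described here are 10 components of fibroblast growth factor (FGF) signalling. They were measured in mouse epiblast-like cells (EpiLCs), which are derived from embryonic stem cells (ESCs) in culture and resemble the epiblast shortly after implantation. They are the ligands Fgf4, Fgf5 and Fgf15, the receptors Fgfr1, Fgfr2, Fgfr3 and Fgfr4, and the proximal adaptors Frs2, Grb2 and Sos1. They were taken by gene symbol from a table of 49585 gene rows, and all 10 symbols were found. The question was how the transcripts of these components differ between cells that lack Cables2 and wild-type cells.

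Cables2-deficient cells (KO) gave 3 libraries, numbered 4, 5 and 6 in the table, and wild-type cells (WT) gave 3 libraries, numbered 1, 2 and 3. Both genotypes were ESC-derived EpiLCs of the C57BL/6 strain. The ESCs had been kept with LIF, 3 µM CHIR99021, a GSK3 inhibitor, and 1 µM PD0325901, an inhibitor of MEK, the kinase that activates ERK. EpiLCs were induced on fibronectin with 12 ng/mL basic FGF, activin A at 20 ng/mL and serum replacement (KSR) at 1%, so KO and WT cells alike were given an FGF ligand. Total RNA came from the second day (day 2). The labels do not say how Cables2 was inactivated or whether the libraries of a genotype came from separate clones or cultures, so the spread behind each p-value may be technical.

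FGF ligands bind receptor tyrosine kinases on the cell surface together with heparan sulfate. The activated receptor phosphorylates the docking protein Frs2, which recruits the adaptor Grb2 and with it Sos1, an exchange factor that loads Ras with GTP and so starts the Raf, MEK and ERK kinase cascade. In mouse ESCs this route, fed by Fgf4 that the cells make themselves, is known for driving the exit from naive pluripotency, and Fgf5 is a classical marker of the primed state that follows.

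Read counts summed to 5134417, 5206717 and 4442618 in KO libraries 4, 5 and 6, against 4848967, 4477305 and 4234788 in WT libraries 1, 2 and 3. A gene with a count of 3 stands at 0.576 to 0.708 CPM (counts scaled to library size), the floor used here, and such floors cover counting error only. Cables2 itself had 1.17, 2.09 and 0.904 CPM in the KO libraries, against 23.9, 24.8 and 28.9 CPM in the WT libraries, a log2 fold change of -4.16 ± 0.26 (SE). Of 9 EpiLC markers measured, 4 were higher and 1 was lower in KO (summed level 5289 to 5502 CPM in KO and 4978 to 5146 CPM in WT). Of 9 naive ESC markers measured, 1 was higher and 7 were lower in KO (246 to 247 CPM in KO and 396 to 463 CPM in WT). Summed markers of primitive endoderm and trophoblast were low. Those of primitive endoderm reached 12.8 to 20.6 CPM in KO and 21.6 to 25.8 CPM in WT. Of 3 measured, 1 was lower in KO by edgeR and limma voom and 0 by DESeq2. Trophoblast markers summed to 28.3 to 37.1 CPM in KO and 25.2 to 34.1 CPM in WT. Of 4 measured, 0 were called by edgeR, DESeq2 or limma voom, and 1 was lower at an unadjusted p under 0.05 in edgeR. Elf5 and Plac1 stood at 0. Fibroblast markers summed to 49.5 to 61.9 CPM in KO and 43.1 to 48.8 CPM in WT. Of 4 measured, 1 was higher in KO by edgeR and 0 by DESeq2 or limma voom, and Postn, Lum and Prrx1 stood at 0. Neural markers summed to 130 to 155 CPM in KO and 112 to 126 CPM in WT, with Nes alone of 4 higher in KO. Mitochondrial transcripts took 0.204% to 0.243% of counts in KO and 0.141% to 0.152% in WT, and the part of these differences in the results below was not tested.

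Among the 10 genes, Fgf5 was higher and Fgfr1 was lower in KO, and the other 8 gave no call. Low counts kept Fgf15 out of the test, which ran on 11594 genes with edgeR's quasi-likelihood model, called at a Benjamini-Hochberg adjusted p under 0.05. The 9 tested genes therefore held 1 higher and 1 lower call. Of all tested genes 17.3% were called, 8.13% higher and 9.13% lower in KO, so the number of calls among the 9 was near the share over all genes. The KO and WT libraries did not overlap for the same pair of genes, while 31.6% of all tested genes had no overlap, 15.6% with KO above and 16% with KO below. The median log2 fold change of the 9 was -0.04, against 0.01 over all tested genes, and the median size of change was 0.23, against 0.17 over all. In the authors' deposited table the same pair passed an FDR of 0.05, with a signed fold of 2.25 for Fgf5 and -1.23 for Fgfr1, KO over WT.

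**Figure D1:**
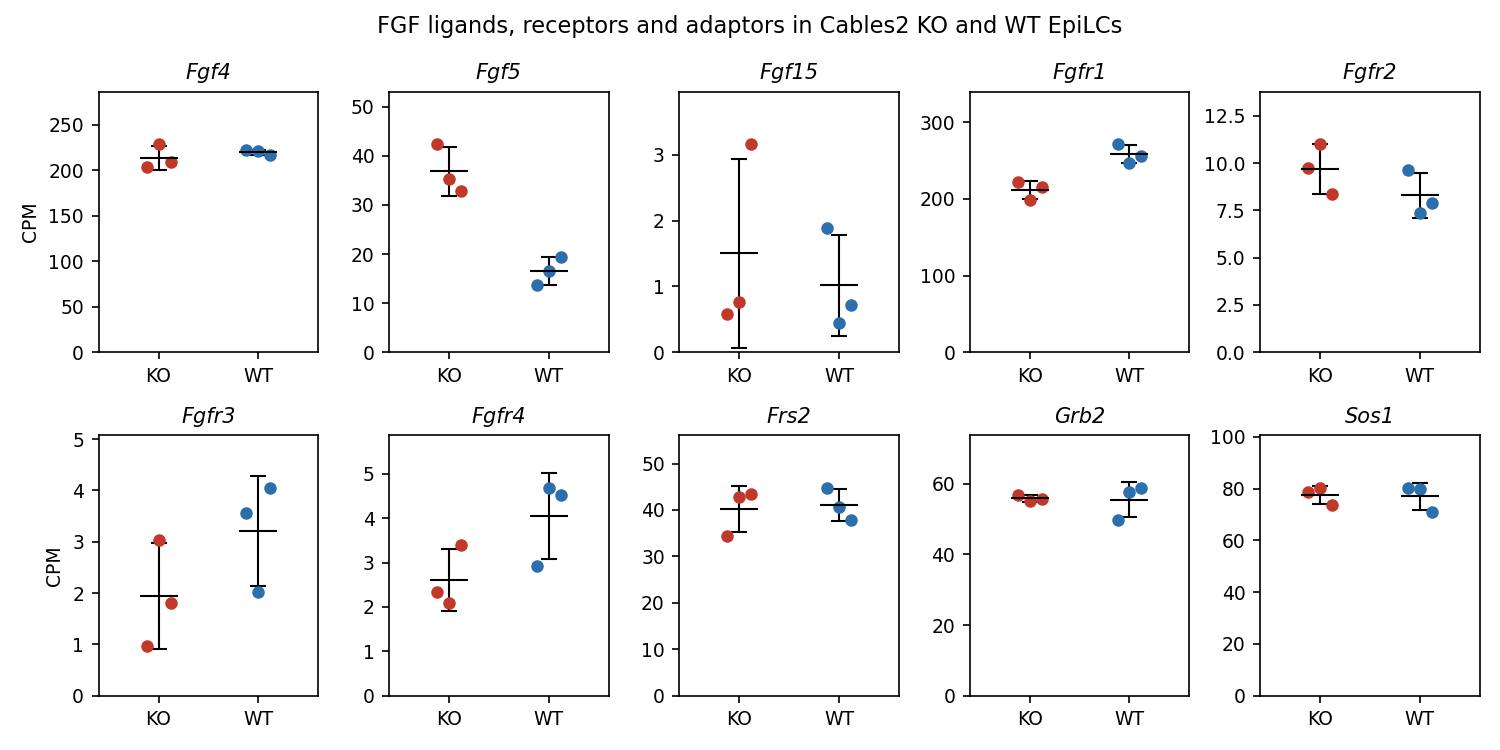
Level of each of the 10 genes in CPM (vertical axis, from 0, with its own range in every panel) in KO and WT libraries; points are libraries, and the bars show the mean ± SD of 3. The KO points of Fgf5 lie above all WT points, those of Fgfr1 lie below all WT points, and in the other panels the groups overlap.

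Of the ligands Fgf4 and Fgf5, Fgf5 was called and Fgf4 was not. A RefSeq start of each is shown so that the called ligand can be set beside the uncalled one; each window runs from 250 bases before to 50 bases after the RefSeq transcript start (build GRCm38.p6, plus strand). Capitals mark matches to a TATA box (TATANA), a GC box (GGGCGG) and a CCAAT box (CCAAT), searched on both strands together with the octamer ATTTGCAT and the ETS core CCGGAAG.
Fgf4, chr7:144861136-144861435: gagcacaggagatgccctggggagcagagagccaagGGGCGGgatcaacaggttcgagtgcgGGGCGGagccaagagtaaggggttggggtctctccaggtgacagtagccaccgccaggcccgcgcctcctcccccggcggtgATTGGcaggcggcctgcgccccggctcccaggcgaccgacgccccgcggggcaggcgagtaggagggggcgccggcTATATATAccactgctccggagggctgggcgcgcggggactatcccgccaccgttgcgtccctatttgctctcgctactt
Fgf5, chr5:98253934-98254233: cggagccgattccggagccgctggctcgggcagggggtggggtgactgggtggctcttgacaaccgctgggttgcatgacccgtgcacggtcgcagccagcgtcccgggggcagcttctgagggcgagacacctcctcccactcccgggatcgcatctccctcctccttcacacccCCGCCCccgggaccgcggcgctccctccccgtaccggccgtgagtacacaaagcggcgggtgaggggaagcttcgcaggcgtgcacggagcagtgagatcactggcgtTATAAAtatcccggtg

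Both windows are rich in G and C, with 69.7% GC and 28 CpG dinucleotides in Fgf4 and 68.3% GC and 29 CpG dinucleotides in Fgf5. The Fgf4 window has a pair of overlapping TATA matches at -30 and -28 from the start, GC boxes at -214 and -188, and a CCAAT box on the minus strand at -106. The Fgf5 window has its only TATA match at +35, downstream of the listed start, and a GC box on the minus strand at -74. Neither window holds the octamer or the ETS core in these letters. Of 32851 windows of this length in the RefSeq table, 24.7% hold the TATA letters, 35.7% the GC box, 37.4% the CCAAT box, 1.74% the octamer and 8.86% the ETS core. The RefSeq start of Fgf4, 144861386, is also that of 1 GENCODE transcript, and another GENCODE transcript starts at 144847367, the start of the gene span in the table, which these letters do not cover. These matches describe the sequence and were not tested as binding sites.

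Fgf5, a ligand of the postimplantation epiblast (chromosome 5, 98254184 to 98277030, plus strand, mm10), had counts of 218, 186 and 145 in KO libraries 4, 5 and 6, against 65, 74 and 81 in WT libraries 1, 2 and 3. All KO libraries lay above all WT libraries. Its level averaged 36.8 ± 5 CPM in KO and 16.5 ± 2.85 CPM in WT (SD, n = 3 each). The log2 fold change was 1.17 ± 0.14 (SE), a 2.25-fold higher level with a 95% interval of 1.85 to 2.74 (adjusted p = 5.2e-10, edgeR quasi-likelihood test). The size of this change exceeded that of 99.1% of all tested genes, and of the 766 tested genes on chromosome 5, 99.0% had a lower value. In bulk RNA, a larger share of cells making Fgf5 and more Fgf5 RNA in each cell cannot be told apart. Fgf5 moved in the same direction as the summed EpiLC markers and opposite to the summed naive ESC markers given above. Single EpiLC markers were mixed, with 4 of 9 higher, 4 not called and 1 lower in KO. Of 9 naive ESC markers, 7 were lower, 1 was not called and 1 was higher. The part of these marker differences in the change of Fgf5 was not tested.

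The nearest tested genes around Fgf5 did not share one direction. The nearest on each side, Naa11 and A930011G23Rik, start far away, at -871986 and 963242 bases from the start of Fgf5. Before it, Naa11 had a log2 fold change of 0.33 and Paqr3 one of -0.07, neither called, while Bmp2k was lower in KO (-0.79, adjusted p = 0.00671, edgeR). After it, A930011G23Rik (-0.64) and Hnrnpd (0.14) were not called, and Hnrnpdl was higher in KO (0.23, adjusted p = 0.00306, edgeR).

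By the distance between log2 CPM patterns centred on their own means over the 6 libraries, the 2 genes most like Fgf5 among 9922 compared were Grip1 and Dll3. Grip1, a scaffold protein of neuronal synapses, averaged 14.8 ± 2.32 CPM in KO and 5.90 ± 0.504 CPM in WT, at a root mean square distance of 0.129. Dll3, a Delta-family ligand that inhibits Notch signalling, averaged 28.7 ± 2.49 CPM in KO and 12.2 ± 1.15 CPM in WT, at a distance of 0.133. Their log2 fold changes were 1.33 ± 0.22 and 1.24 ± 0.16 (SE), and both were called. Because they were chosen by their pattern over these same libraries, a change like that of Fgf5 was built into the choice.

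Fgf4, the ligand that ESCs and epiblast cells secrete (chromosome 7, 144847367 to 144865243, plus strand), had counts of 1048, 1206 and 924 in KO libraries 4, 5 and 6, against 1060, 990 and 908 in WT libraries 1, 2 and 3. Its level averaged 213.9 ± 13.2 CPM in KO and 219.9 ± 2.91 CPM in WT, with overlapping groups. The log2 fold change was -0.04 ± 0.06 (SE), with a 95% interval of -0.15 to 0.08 (adjusted p = 0.709, edgeR). The interval covers folds from 0.899 to 1.05, so a change of Fgf4 as large as that of Fgf5 lies outside it. Fgf4 stood above 92.5% of all tested genes by mean CPM and Fgf5 above 48.2%, so the 2 ligands were measured at different depths.

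Fgf15, the mouse counterpart of human FGF19 and a hormone-like ligand of the gut and the embryonic nervous system (chromosome 7, 144896531 to 144900953, plus strand), was scarce. Its counts were 3, 4 and 14 in KO libraries 4, 5 and 6, against 9, 2 and 3 in WT libraries 1, 2 and 3. KO library 6 held most of the KO counts and WT library 1 most of the WT counts, and the groups overlapped. The summed count was 21 in KO (exact Poisson 95% interval 13.0 to 32.1, counting error only) and 14 in WT (7.65 to 23.5), too few for the test. Low counts in this table are not always low transcript levels: Sox2, a pluripotency gene that EpiLCs are known to use, had a summed count of 6 over the 6 libraries. The antisense gene Gm26793 covers 24.9% of the exon bases of Fgf15. Whether the counting was done by strand is not stated in the labels.

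Within a library, the share of each ligand in the summed ligand level does not depend on scaling between libraries. Per exon length, Fgf5 made up 20.9%, 16.4% and 16.5% of the 3 ligands in KO libraries 4, 5 and 6, against 7.21%, 8.70% and 10.2% in WT libraries 1, 2 and 3. Fgf4 made up 78.8%, 83.3% and 82.2% in the KO libraries, against 92.0%, 91.1% and 89.5% in the WT libraries. The mean share of Fgf5 was 9.25 percentage points higher in KO and that of Fgf4 fell by 9.41 points, and neither share overlapped between the groups. An exact 2-sided permutation test gave p = 0.1 for each, the smallest value that 3 against 3 libraries allow. After adjustment over the 7 shares tested, each permutation p was 0.233. The shares of a library add up to a fixed whole, so a higher Fgf5 share lowers that of Fgf4. The Fgf4 share and the Fgf4 to Fgf5 ratio are therefore not separate results, and the Fgf4 level itself was not called. Per exon length, Fgf4 stood 3.76, 5.08 and 4.99 times above Fgf5 in KO libraries 4, 5 and 6, against 12.8, 10.5 and 8.77 times in WT libraries 1, 2 and 3.

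**Figure D2:**
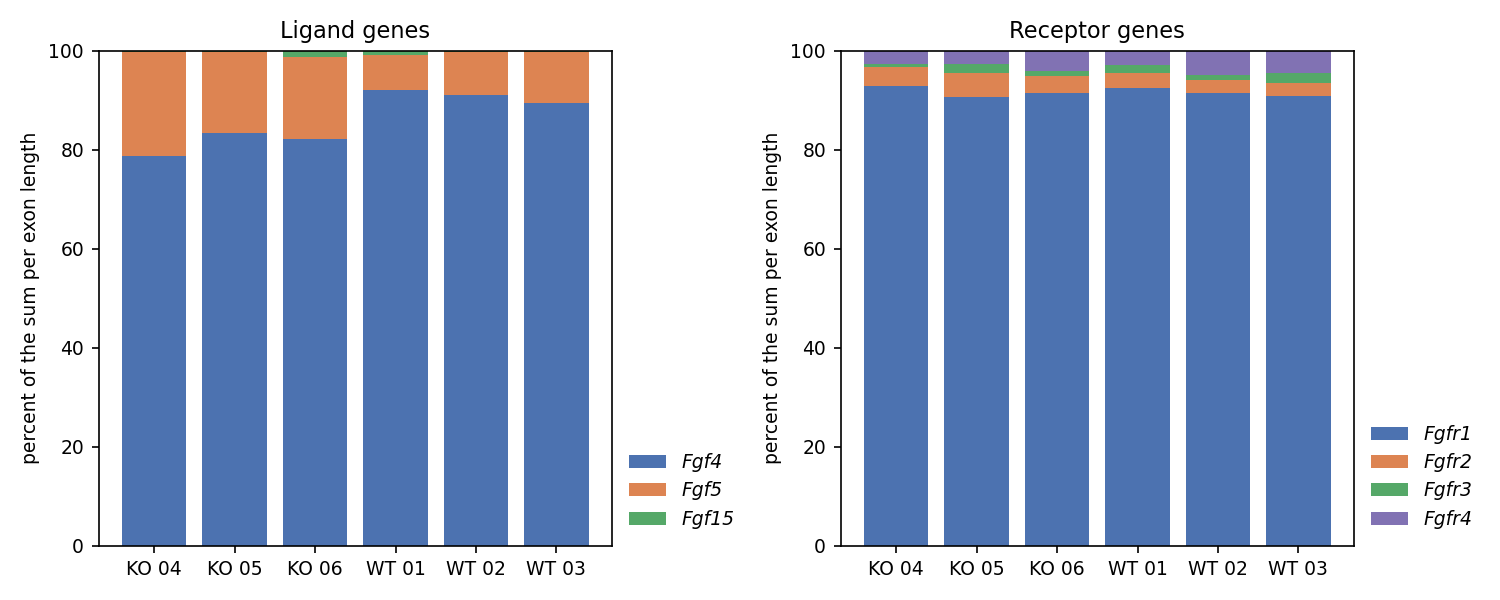
Share of each ligand (left) and each receptor (right) in the summed counts per exon length of its set, in percent from 0 to 100; every bar is 1 library, KO libraries left of WT libraries. The Fgf5 segment spans 16.4% to 20.9% in the KO bars and 7.21% to 10.2% in the WT bars, while the Fgfr1 segment lies between 90.6% and 92.8% in all 6.

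Fgfr1, the main FGF receptor of ESCs and epiblast cells (chromosome 8, 25513654 to 25575718, plus strand), was lower in KO. Its counts were 1140, 1044 and 951 in KO libraries 4, 5 and 6, against 1297, 1108 and 1076 in WT libraries 1, 2 and 3, which scale to 221.9, 198.1 and 215.02 CPM in KO and 271.7, 247.5 and 256.7 CPM in WT. All KO libraries lay below all WT libraries in CPM. The mean was 211.7 ± 12.2 CPM in KO and 258.6 ± 12.2 CPM in WT. The log2 fold change was -0.29 ± 0.06 (SE), a level in KO of 0.818 times that in WT with a 95% interval of 0.756 to 0.885 (adjusted p = 6.09e-05, edgeR). This size of change was larger than that of 71.9% of tested genes.

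Fgfr1 lies on chromosome 8, and genes of chromosomes 6 and 8 were lower in KO as a body. The median log2 fold change was -0.21 over the 647 tested genes of chromosome 8, of which 34.5% were called lower, and -0.25 over the 537 of chromosome 6, of which 35.8% were called lower. The other chromosomes had medians between -0.01 and 0.05. The log2 fold change of Fgfr1 was 0.08 below the median of chromosome 8, where 36.2% of tested genes had a lower value. With the libraries scaled on chromosome 8 genes alone, which by construction brings that chromosome near 0, the log2 fold change of Fgfr1 was -0.084 (adjusted p = 0.241, edgeR) and was not called. Around Fgfr1, Plekha2 (-0.46) before it and Whsc1l1 (-0.31) after it were also called lower, and Tacc1, Tm2d2, Letm2 and Plpp5, with values from -0.67 to -0.14, were not called.

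**Figure D3:**
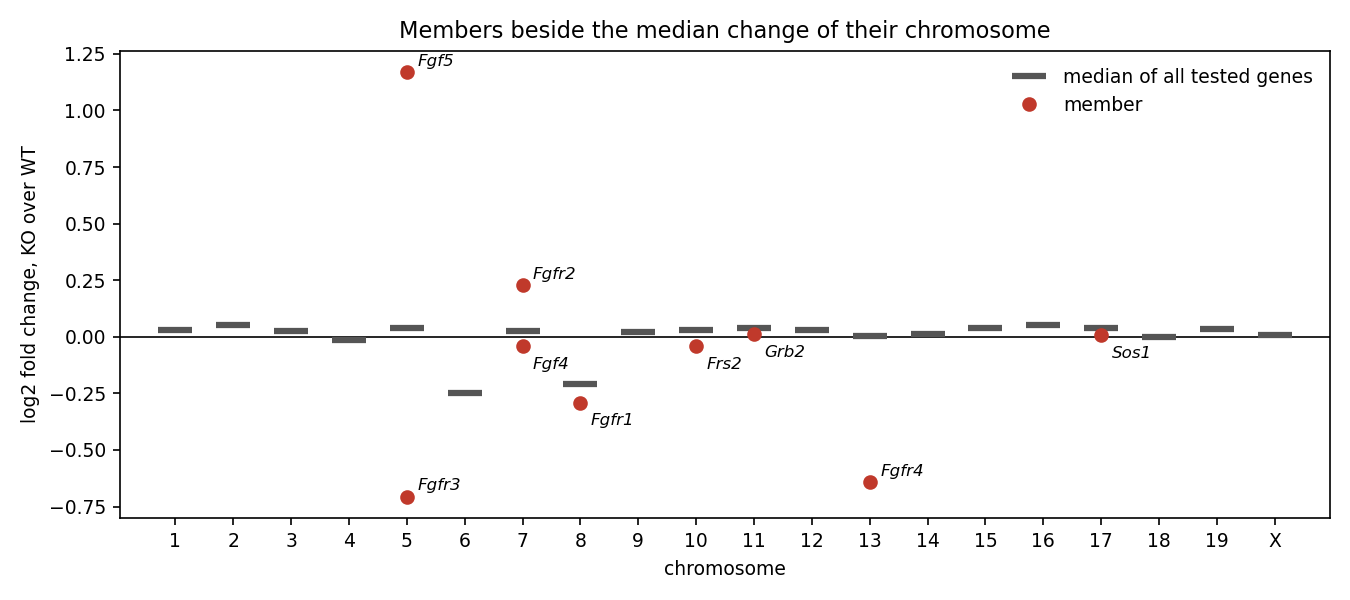
Log2 fold change, KO over WT (vertical axis), of the 9 tested genes (points) above their chromosome (horizontal axis), with the median of all tested genes of each chromosome as a bar. The medians of chromosomes 6 and 8 lie at -0.25 and -0.21, and Fgfr1 at -0.29 lies near that of chromosome 8, whereas Fgf5 at 1.17 lies far from that of chromosome 5.

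Library by library, the centred median of chromosome 8 genes was -0.09, -0.10 and -0.10 log2 units in KO libraries 4, 5 and 6, against 0.10, 0.11 and 0.11 in WT libraries 1, 2 and 3. The centred level of Fgfr1 was -0.08, -0.24 and -0.12 in the KO libraries, against 0.22, 0.08 and 0.13 in the WT libraries. The 2 genes most like Fgfr1 over the 6 libraries were Bahcc1, at a root mean square distance of 0.03, and Tmem106b, also at 0.03. Bahcc1, a large chromatin-associated protein with a BAH domain, averaged 267.5 ± 11.2 CPM in KO and 323.9 ± 23.5 CPM in WT and was called lower. Tmem106b, a lysosomal membrane protein, averaged 17.04 ± 1.13 CPM in KO and 21.6 ± 1.08 CPM in WT and was not called (adjusted p = 0.113, edgeR). Here too the choice by pattern built in a change like that of Fgfr1.

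The other 3 receptors were far less abundant and gave no call. Fgfr2, a receptor prominent in extraembryonic lineages (chromosome 7, 130162451 to 133123350, minus strand), had counts of 50, 58 and 37 in KO libraries 4, 5 and 6, against 46, 33 and 33 in WT libraries 1, 2 and 3. Its log2 fold change was 0.23 ± 0.22 (SE), with a 95% interval of -0.21 to 0.67 (adjusted p = 0.544, edgeR), and the groups overlapped. With 1 library left out it ran from 0.12 (without KO library 5) to 0.36 (without WT library 1), also uncalled. The annotated span of Fgfr2 covers 69 other genes, of which Ctbp2 shares exon bases with it (3.04% of the Fgfr2 exon length).

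Fgfr3, a receptor best known for restraining bone growth (chromosome 5, 33721674 to 33737068, plus strand), had counts of 5, 16 and 8 in KO libraries 4, 5 and 6, against 17, 9 and 17 in WT libraries 1, 2 and 3. Fgfr4, which binds Fgf15 with the co-receptor Klb (chromosome 13, 55152640 to 55168759, plus strand), had counts of 12, 11 and 15 in the KO libraries, against 14, 21 and 19 in the WT libraries. KO libraries lay toward the low end for both, but 1 KO library in each case reached above the lowest WT library. The log2 fold changes were -0.71 ± 0.43 for Fgfr3 (95% interval -1.56 to 0.14, adjusted p = 0.271, edgeR) and -0.64 ± 0.37 for Fgfr4 (-1.38 to 0.10, adjusted p = 0.248). Both intervals include 0 and large decreases, and no change of either receptor was detected. With 1 library left out, Fgfr3 ran from -1.22 (without KO library 5) to -0.38 (without KO library 4) and Fgfr4 from -0.86 to -0.50, neither called. Klb itself had at most 2 counts in any library. The opposite-strand gene G630022F23Rik covers 13.9% of the exon bases of Fgfr3.

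Per exon length, Fgfr1 made up 92.8%, 90.6% and 91.5% of the 4 receptors in KO libraries 4, 5 and 6, against 92.4%, 91.5% and 90.9% in WT libraries 1, 2 and 3 (exact permutation p = 1). Fgfr2 made up 3.89%, 4.81% and 3.40% in the KO libraries, against 3.13%, 2.61% and 2.66% in the WT libraries. All KO shares of Fgfr2 lay above all WT shares, with a mean 1.23 percentage points higher. The exact permutation p was 0.1, the smallest the design allows, and 0.233 after adjustment over 7 shares. Fgfr1 made up most of the sum and was lower in KO. The share of Fgfr2 depends on the levels of all 4 receptors, and the Fgfr1 to Fgfr2 ratio on both of its genes. In CPM per kilobase of exon, Fgfr2 averaged 0.939 in KO and 0.803 in WT, and Fgfr1 averaged 21.4 and 26.2. The part of each receptor in the share difference was not tested. The level of Fgfr2 itself overlapped between the groups and was not called. Fgfr3 averaged 1.18% in KO and 1.56% in WT, and Fgfr4 averaged 3.14% in KO and 4.03% in WT, with overlapping groups. Fgfr1 stood 23.8, 18.8 and 26.9 times above Fgfr2 in KO libraries 4, 5 and 6, against 29.5, 35.1 and 34.1 times in WT libraries 1, 2 and 3.

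None of the 3 adaptors was called, and their estimates lay close to 0. Frs2, the docking protein that FGF receptors phosphorylate (chromosome 10, 117070129 to 117148474, minus strand), had counts of 177, 225 and 192 in KO libraries 4, 5 and 6, against 214, 182 and 159 in WT libraries 1, 2 and 3. Grb2, the adaptor that couples phosphorylated tyrosines to Sos1 (chromosome 11, 115644045 to 115708597, minus strand), had counts of 292, 290 and 246 in the KO libraries, against 238, 258 and 247 in the WT libraries. Sos1, the Ras exchange factor (chromosome 17, 80393752 to 80480453, minus strand), had counts of 404, 423 and 326 in the KO libraries, against 384, 357 and 297 in the WT libraries. The groups overlapped for all 3 adaptors. In CPM, Frs2 averaged 40.2 ± 4.98 in KO and 41.1 ± 3.47 in WT, Grb2 averaged 55.8 ± 0.913 in KO and 55.5 ± 4.91 in WT, and Sos1 averaged 77.5 ± 3.42 in KO and 77.01 ± 5.35 in WT. The 95% intervals of the log2 fold change ran from -0.26 to 0.19 for Frs2, from -0.18 to 0.20 for Grb2 and from -0.16 to 0.17 for Sos1 (adjusted p = 0.86, 0.955 and 0.958, edgeR). The interval of Fgf5 (0.89 to 1.45) lies clear of these 3. That of Fgfr1 (-0.40 to -0.18) overlaps the interval of Frs2 and meets that of Grb2 at its edge. Differences between genes were not tested.

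**Figure D4:**
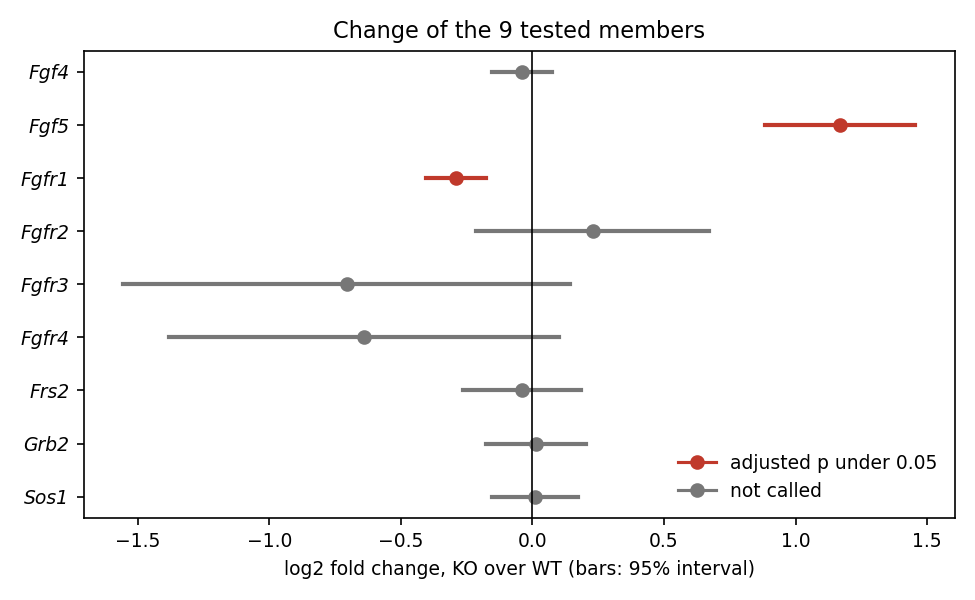
Log2 fold change, KO over WT (horizontal axis), of the 9 tested genes from edgeR's quasi-likelihood test; points are estimates, bars are 95% intervals, and red marks an adjusted p under 0.05. The intervals of Fgf5 (0.89 to 1.45) and Fgfr1 (-0.40 to -0.18) lie clear of 0, and those of Fgfr3 and Fgfr4 are the widest.

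Levels of different genes were compared in CPM per kilobase of annotated exon. In KO the order of the means was Fgf4 (66.95 ± 4.13), Fgfr1 (21.4 ± 1.24), Grb2 (19.1 ± 0.313), Fgf5 (14.7 ± 2.00), Sos1 (7.32 ± 0.323), Frs2 (4.59 ± 0.57), Fgfr2 (0.939 ± 0.128), Fgfr4 (0.735 ± 0.196), Fgf15 (0.491 ± 0.472) and Fgfr3 (0.271 ± 0.145). Between neighbours in the KO order, the library values overlapped from Fgfr2 to Fgfr4, from Fgfr4 to Fgf15 and from Fgf15 to Fgfr3. In WT the order was Fgf4 (68.8 ± 0.912), Fgfr1 (26.2 ± 1.23), Grb2 (19.02 ± 1.68), Sos1 (7.27 ± 0.505), Fgf5 (6.59 ± 1.14), Frs2 (4.70 ± 0.397), Fgfr4 (1.14 ± 0.275), Fgfr2 (0.803 ± 0.115), Fgfr3 (0.448 ± 0.149) and Fgf15 (0.332 ± 0.25). Between neighbours in the WT order, the library values overlapped for Sos1 and Fgf5, for Fgfr4 and Fgfr2, and for Fgfr3 and Fgf15. Fgf5 thus ranked 4 in KO, above Sos1 in all 3 libraries, and 5 in WT, where it overlapped Sos1. With the longest transcript as the length in place of all exons, the first 6 places were the same in both orders.

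**Figure D5:**
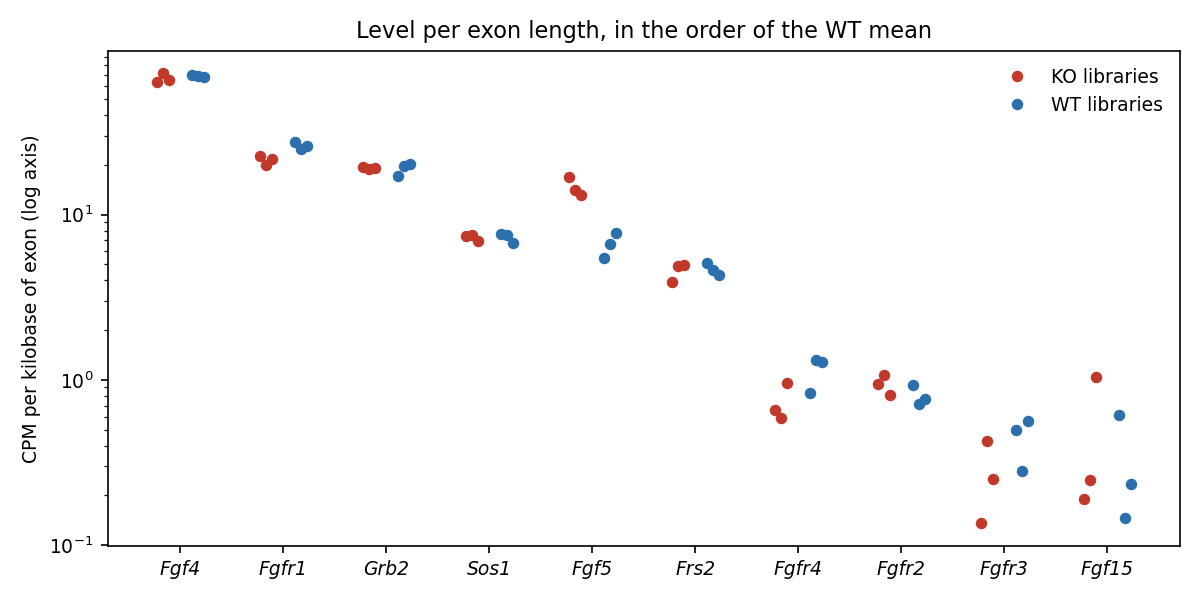
Level of the 10 genes in CPM per kilobase of exon (vertical log axis), ordered by the WT mean; each point is a library, KO left of WT for every gene. Fgf5 lies at 13.1 to 16.96 in KO and 5.44 to 7.73 in WT, and Fgf4 lies above all other genes in all 6 libraries.

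Beside each list below stand the shares over all tested genes, 8.13% called higher and 9.13% lower in KO, with a median log2 fold change of 0.01. Of 19 remaining FGF ligands, 5 had enough counts for the test, of which 0 were higher and 2 lower in KO. The number higher was also 0 at an unadjusted p under 0.05 in edgeR, and 0 by DESeq2 and by limma voom. Fgf13, an intracellular member of the family named here after its values were seen, had 89, 77 and 69 counts in KO against 89, 56 and 57 in WT and was not called (0.08 ± 0.18, adjusted p = 0.811, edgeR). The lower pair, named here after their values were seen, was Fgf17 (12, 15 and 18 counts in KO against 41, 23 and 26 in WT, log2 fold change -1.13 ± 0.32) and Fgf21 (5, 9 and 2 counts in KO against 14, 11 and 15 in WT, -1.45 ± 0.49). Fgf17 belongs to the Fgf8 subfamily of embryonic ligands, and Fgf21 is a metabolic hormone. The adjusted p was 0.00743 for Fgf17 and 0.0282 for Fgf21 (edgeR). Without KO library 4 neither was called (-0.96, adjusted p = 0.0559, and -1.38, adjusted p = 0.0966), and without WT library 1 neither was called (-0.89, adjusted p = 0.108, and -1.46, adjusted p = 0.0707). Fgf21 also lost its call without KO library 6 (-1.13, adjusted p = 0.142), without WT library 3 (-1.31, adjusted p = 0.119) or by DESeq2 (adjusted p = 0.112). Fgf2, the gene of the growth factor supplied in the medium, was listed at 0 in all 6 libraries.

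Of 27 measured co-receptors and heparan sulfate genes, 4 were higher and 2 lower in KO, with a median log2 fold change of -0.02. The higher ones were Sulf1 and Sulf2, which remove 6-O-sulfate groups from heparan sulfate outside the cell, and the proteoglycans Sdc4 and Gpc4. Sulf1 averaged 48.7 ± 3.70 CPM in KO and 33.4 ± 0.752 CPM in WT (log2 fold change 0.54 ± 0.11), and Sulf2 averaged 195.8 ± 1.34 CPM in KO and 137.6 ± 5.09 CPM in WT (0.51 ± 0.06). Sdc4 averaged 92.3 ± 2.61 CPM in KO and 64.7 ± 8.74 CPM in WT (0.51 ± 0.09). The lower ones were Hs3st3b1, a heparan sulfate 3-O-sulfotransferase (-0.91 ± 0.30), and Hspg2, the basement membrane proteoglycan perlecan (-0.14 ± 0.05). Hs3st3b1 lost its call without KO library 4 (-0.72, adjusted p = 0.138) or WT library 1 (-0.74, adjusted p = 0.155), and Hspg2 without KO library 5 (-0.16, adjusted p = 0.0504), KO library 6 (-0.10, adjusted p = 0.264) or WT library 1 (-0.05, adjusted p = 0.571). Hspg2 was also not called with upper-quartile factors (adjusted p = 0.0832), with library size alone (adjusted p = 0.0839) or without robust fitting (adjusted p = 0.0532). DESeq2 called the same number higher, 4, and 0 lower.

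Of 18 further adaptors and Ras exchange genes, 1 was higher and 0 were lower by edgeR, with a median of 0.04. At an unadjusted p under 0.05, 2 were lower, and DESeq2 and limma voom called 0 lower. The higher gene was Grb10, an imprinted adaptor that binds receptor tyrosine kinases, at 589.1 ± 11.4 CPM in KO and 473.9 ± 23.1 CPM in WT (log2 fold change 0.31 ± 0.05, adjusted p = 2.47e-07, edgeR). With the libraries scaled without chromosomes 6 and 8, 2 genes of this list were called lower.

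All 20 genes of the Ras to ERK cascade were measured, of which 2 were higher and 5 lower in KO, with a median log2 fold change of -0.02. Of the 5 lower genes, 3 lie on chromosome 6, among them Braf, a kinase directly below Ras. Mapk3, which encodes the kinase ERK1 and lies on chromosome 7, averaged 63.8 ± 3.74 CPM in KO and 88.4 ± 6.29 CPM in WT (-0.47 ± 0.08). Rps6ka1, a kinase that ERK activates, was also lower. The higher genes were Ksr2, a scaffold of the cascade, at 9.24 ± 1.76 CPM in KO and 3.63 ± 0.324 CPM in WT (1.34 ± 0.28), and Ywhab, a 14-3-3 protein that binds Raf kinases (0.22 ± 0.06). The call of Braf was lost without KO library 6 (-0.22, adjusted p = 0.0626) or WT library 1 (-0.21, adjusted p = 0.0648).

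Of 15 genes of the other branches below the receptor, 1 was higher and 2 were lower, with a median of -0.09. Pik3cb, a catalytic subunit of PI3 kinase, was lower (-0.36 ± 0.11). The higher gene, Prkca, a protein kinase C named after its values were seen, averaged 3.80 ± 0.449 CPM in KO and 1.71 ± 0.321 CPM in WT and lost its call whichever library was left out (adjusted p from 0.0688 to 0.162). Prkca was not called by limma voom (adjusted p = 0.0505), and DESeq2 called 0 genes of these branches in either direction.

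Over all tested genes, as given above, 8.13% were called higher and 9.13% lower in KO. Of 21 measured feedback and target genes of ERK signalling, 2 were higher and 6 lower in KO, with a median log2 fold change of -0.14. Their summed level was 2552 to 2590 CPM in KO and 2828 to 2930 CPM in WT, and the groups did not overlap. The sums of 2 other lists did not overlap either, with KO below for the Ras to ERK cascade and KO above for the further adaptors. Of single tested genes, 31.6% had no overlap. The other 13 were not called. Among them, named here after their values were seen, were Dusp6 (-0.11, adjusted p = 0.128, edgeR) and Etv5 (0.02, adjusted p = 0.88). Spry2 (-0.14, adjusted p = 0.149) and Egr1 (0.02, adjusted p = 0.93) were also among them. Among the called genes above 5 CPM, the 3 largest decreases were those of Dusp4, a phosphatase that acts on ERK, Etv4, an ETS factor induced by FGF signalling, and Myc. Dusp4, on chromosome 8, averaged 94.98 ± 6.02 CPM in KO and 136.98 ± 5.54 CPM in WT (-0.53 ± 0.07). Etv4 averaged 194.6 ± 8.63 CPM in KO and 271.02 ± 27.1 CPM in WT (-0.48 ± 0.06), and Myc averaged 152.7 ± 13.9 CPM in KO and 203.8 ± 16.1 CPM in WT (-0.42 ± 0.06). Spry4, Ier2, which also lies on chromosome 8, and Ccnd1 were the other lower genes. The higher genes were Spred3, an inhibitor of the Ras pathway (0.51 ± 0.18, with overlapping groups), and Fosl1, an AP-1 factor named after its values were seen (1.18 ± 0.33). Spred3 lost its call without KO library 4 or 5 or WT library 1 or 2 (adjusted p from 0.085 to 0.316), and Fosl1 without KO library 6 (0.83, adjusted p = 0.137) or WT library 2 (0.97, adjusted p = 0.0591). DESeq2 called 1 higher and 5 lower, without Spred3 (adjusted p = 0.186) and Ier2 (adjusted p = 0.129). Spred3 was also not called by limma voom, without the low-count filter or with the libraries scaled without chromosomes 6 and 8.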

How the data were processed

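Total RNA from 3 KO and 3 WT EpiLC samples went through ribosomal RNA depletion and a directional library kit, and was read in paired ends of 36 bases, per the labels' protocols. The table that the authors deposited lists per gene the read count of each library, in whole numbers without normalization, and the p-value, FDR and signed fold score of the authors' own test, per the file headers. Only mm10 and edgeR appear in the submitters' processing notes; aligner, annotation and counting settings: not given in the sources used here. Another 18 columns of per-library values were left unused. Columns were assigned to genotypes by name and carry library numbers in place of the labels' replicate numbers.

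Counts passed filterByExpr, were normalized by TMM (factors 0.987 to 1.02) and were tested with the robust quasi-likelihood model of edgeR 4.0.16 (R 4.3.3), KO over WT, after a check on simulated data; the common biological coefficient of variation was 5.03%. A standard error is the log2 fold change over the square root of F. Limma 3.58.1 (voom) and DESeq2 1.42.0 served as alternatives, beside other scalings, filters and left-out libraries. Exon lengths come from GENCODE M21 (GRCm38). Table coordinates are printed 1-based, and promoter windows come from RefSeq (GRCm38.p6), where 8 of the 10 genes were matched.

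The genes, the pathway and marker lists and the tests were chosen with earlier results of these data known. All 10 genes were named, with at most 3 called genes a direction from each list, those of largest change with a mean of at least 5 CPM, and the 2 genes most like each called member. A few genes that the rule names are not reported here. Any other called gene is named without the rule, after its values were seen.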

Additional observations from a re-analysis of the deposited data

How the results depend on the processing

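Across 10 other settings for scaling, filtering and test, Fgf5 stayed higher in KO (log2 fold change 1.14 to 1.19, highest adjusted p 5.44e-08), and leaving out each library in turn gave 1.04 to 1.29 (highest adjusted p 8.93e-07). Fgfr1 stayed lower in the same 10 settings (-0.32 to -0.27, highest adjusted p 0.000361, DESeq2). It also stayed lower when each library was left out (-0.33 to -0.24, highest adjusted p 0.0043). Fgfr1 lost its call when scaled on chromosome 8 genes alone (-0.084, adjusted p 0.241), a scaling chosen after seeing the data that centres that chromosome by construction. Estimates near 0 changed sign without a call: with scaling without chromosomes 6 and 8 Grb2 was -0.014 and Sos1 -0.016, and with libraries left out Frs2 ran from -0.095 to 0.059, Grb2 from -0.062 to 0.056 and Sos1 from -0.046 to 0.043. The Fgfr1 share difference, 0.039 percentage points, was -0.612 by longest transcript and -0.668 without length, and ran from -0.549 to 0.557 with libraries left out; that of Fgf15 ran from -0.177 to 0.358. Over all genes DESeq2 called 561 higher and 680 lower, against 943 higher and 1059 lower with edgeR, and the cause was not tested. Of 30 list and pattern genes called, 19 kept their call throughout and 11 lost it under at least 1 setting or left-out library. No paired analysis was possible because the columns carry no replicate numbers of the labels. Depth limits Fgf15, Fgfr3 and Fgfr4 most, at 2 to 21 counts a library.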
